A study of Homo sapiens with 6 samples.

Results

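The 37 genes described here are known targets of the hypoxia-inducible factors (HIF) outside glycolysis, blood vessel growth and mitophagy. They were taken by gene name, with earlier results of these data known, and make up 37 of the 30676 genes in the deposited table. RNA was sequenced from cells labelled HCT116, an established human colorectal cancer line with the genotype label WT, under hypoxia (1% oxygen) for 24 hours. The 3 GIA libraries came from cells given GIA, which the labels call a genistein isoflavonoid alkaloid, at 10 µM. The 3 DMSO libraries came from cells given the solvent DMSO at 0.1%, and the labels give no DMSO content for the GIA libraries. Both groups were hypoxic and there was no group in normal oxygen, so whether oxygen changed any of these genes in these cells was not measured. The comparison asks whether their transcripts differed between GIA and DMSO under low oxygen.

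In low oxygen the HIF alpha subunits escape the hydroxylation that normally marks them for destruction, pair with ARNT and bind DNA at short hypoxia response elements. Many of the genes switched on in this way store fuel: they build glycogen from glucose or keep fatty acids in lipid droplets. Others are feedback regulators of transcription, enzymes and ligands sent to the cell surface or the matrix, and brakes on growth and glucose uptake.

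Of the 7 epithelial markers measured, 3 were close to 0 in all 6 libraries, which goes against the label, and 4 were expressed. FPKM, the fragments counted per kilobase of a gene after scaling to the depth of the library, was 0.119 to 0.335 in GIA and 0.201 to 0.305 in DMSO libraries for EPCAM, the epithelial adhesion molecule. It was 0.0165 to 0.0452 with GIA and 0.0383 to 0.0490 with DMSO for CDH1, which encodes E-cadherin, and at most 0.0122 in any library for the brush-border protein VIL1. Keratins were abundant, with KRT18 at 219 to 274 FPKM in GIA and 259 to 267 FPKM in DMSO libraries, and KRT8 and KRT19 were expressed as well. CLDN7, a protein of epithelial junctions, had 10.8 to 14.9 FPKM in GIA and 10.2 to 11.8 FPKM in DMSO libraries. Of the 6 fibroblast markers measured, LUM, a matrix proteoglycan, had 157 to 197 FPKM in GIA and 160 to 176 FPKM in DMSO libraries, and DCN, a related proteoglycan, had 11.2 to 16.0 FPKM in GIA and 11.6 to 12.5 FPKM in DMSO libraries. PDGFRB had 3.89 to 5.38 FPKM in GIA and 3.77 to 4.20 FPKM in DMSO libraries, COL1A1 had 2.38 to 3.17 FPKM in GIA and 2.23 to 2.38 FPKM in DMSO libraries, and COL3A1 and THY1 stayed at or under 0.133 FPKM. The deposited table lacked the epithelial marker CDX2 and the fibroblast markers COL1A2 and PDGFRA. HCT116 cells are known to express EPCAM and CDH1, so the cells are called here only by their label. Leukocyte and endothelial marker lists summed to at most 0.213 FPKM in any library. Library totals were 64804849 to 67835059 estimated counts with GIA and 55725249 to 63542466 with DMSO. Transcripts of the mitochondrial genome took 4.76% to 5.06% of counts with GIA and 4.56% to 4.89% with DMSO. Nothing in the labels says that the 3 libraries of a group are separate cultures. The p-values therefore reflect only how far these libraries differ, and that spread may be technical.

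The binding element of HIF contains the letters ACGTG or GCGTG, and the promoters of these genes were searched for both. RefSeq windows (GRCh38.p14, 250 bases before to 50 after the start) of 26 of the 37 genes were matched by symbol and searched. On either strand, 17 of 26 windows held ACGTG, against 21.6% of the first window of all 27305 genes in the RefSeq table and 27.5% of the 9448 windows of genes tested here. GCGTG was in 13 of 26, against 36.3% of all windows and 51.9% of those of tested genes. The windows of the 26 genes were also richer in G and C, with a median of 69.3%, against 58.3% over all windows. The palindrome CACGTG, which holds ACGTG on both strands and was therefore counted as 2 matches, was in 10 of 26, against 7.43% of all windows and 10.6% of those of tested genes. These are matches of letters, not measured binding. Below are 4 windows with several matches (LOX, PPP1R3C, BHLHE40, WSB1). Also shown are that of AK4, whose transcript was the steadiest, that of PLIN2, which had almost no counts, and that of TMEM45A, with no match. Capitals mark ACGTG or GCGTG on either strand, and each is written 5′ to 3′ on the gene's own strand.
LOX: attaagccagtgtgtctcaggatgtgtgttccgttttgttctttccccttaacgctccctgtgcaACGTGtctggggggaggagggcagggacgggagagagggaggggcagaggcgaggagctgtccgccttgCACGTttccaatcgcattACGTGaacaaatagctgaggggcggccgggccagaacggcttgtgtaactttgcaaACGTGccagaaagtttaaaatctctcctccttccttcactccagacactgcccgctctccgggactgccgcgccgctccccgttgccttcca
PPP1R3C: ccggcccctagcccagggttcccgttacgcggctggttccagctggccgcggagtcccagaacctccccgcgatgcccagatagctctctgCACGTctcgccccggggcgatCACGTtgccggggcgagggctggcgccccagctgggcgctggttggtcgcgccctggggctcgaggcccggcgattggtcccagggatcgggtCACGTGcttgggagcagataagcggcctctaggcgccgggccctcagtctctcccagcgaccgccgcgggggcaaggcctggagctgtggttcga
BHLHE40: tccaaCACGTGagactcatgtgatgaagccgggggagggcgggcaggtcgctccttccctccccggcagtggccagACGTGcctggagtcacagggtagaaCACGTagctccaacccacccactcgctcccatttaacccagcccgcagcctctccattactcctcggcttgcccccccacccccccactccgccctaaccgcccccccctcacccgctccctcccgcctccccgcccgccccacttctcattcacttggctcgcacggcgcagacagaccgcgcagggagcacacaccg
WSB1: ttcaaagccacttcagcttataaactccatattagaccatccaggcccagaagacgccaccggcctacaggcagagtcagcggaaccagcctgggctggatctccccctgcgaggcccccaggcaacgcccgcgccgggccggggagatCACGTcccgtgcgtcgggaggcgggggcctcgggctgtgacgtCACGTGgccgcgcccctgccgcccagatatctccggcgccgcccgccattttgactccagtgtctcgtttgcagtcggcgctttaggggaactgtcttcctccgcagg
AK4: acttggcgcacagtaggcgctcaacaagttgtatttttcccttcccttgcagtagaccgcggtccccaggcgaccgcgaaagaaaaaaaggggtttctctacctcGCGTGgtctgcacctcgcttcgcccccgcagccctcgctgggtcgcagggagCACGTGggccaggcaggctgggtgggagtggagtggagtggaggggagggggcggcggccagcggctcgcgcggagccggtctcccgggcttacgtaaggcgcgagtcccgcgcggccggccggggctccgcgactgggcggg
PLIN2: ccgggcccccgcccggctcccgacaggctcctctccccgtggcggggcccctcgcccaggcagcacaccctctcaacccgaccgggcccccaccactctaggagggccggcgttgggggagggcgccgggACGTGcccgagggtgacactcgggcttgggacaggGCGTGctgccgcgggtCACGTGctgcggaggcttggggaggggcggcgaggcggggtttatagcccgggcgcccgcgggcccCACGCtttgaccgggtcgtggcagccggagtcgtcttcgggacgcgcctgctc
TMEM45A: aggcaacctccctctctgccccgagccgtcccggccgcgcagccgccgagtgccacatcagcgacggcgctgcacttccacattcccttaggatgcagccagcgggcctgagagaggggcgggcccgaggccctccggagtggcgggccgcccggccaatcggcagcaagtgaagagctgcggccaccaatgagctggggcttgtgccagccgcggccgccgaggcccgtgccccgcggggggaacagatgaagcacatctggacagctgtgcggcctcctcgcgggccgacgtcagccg
The windows lie at chr5:122078210-122078509 (minus strand) for LOX, chr10:91633022-91633321 (minus) for PPP1R3C, chr3:4979187-4979486 (plus) for BHLHE40 and chr17:27293864-27294163 (plus) for WSB1. They lie at chr1:65147302-65147601 (plus) for AK4, chr9:19127443-19127742 (minus) for PLIN2 and chr3:100492369-100492668 (plus) for TMEM45A. The LOX, PPP1R3C and BHLHE40 windows each held 4 matches of ACGTG, the WSB1 and PLIN2 windows 3 and the AK4 window 2. The windows of PGM1, ARRDC3 and RORA also held neither motif, and that of RORA, like that of PLIN2, begins at a RefSeq start far inside the deposited gene model.

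None of the genes that could be tested passed the test between GIA and DMSO. By edgeR's quasi-likelihood test on estimated counts, 32 genes with a mean of at least 0.5 FPKM over the 6 libraries could be tested, and 0 passed a Benjamini-Hochberg adjusted p of 0.05, where 0.0% of all 13721 genes tested did. The smallest adjusted p among the 32 was 0.875. At an unadjusted p under 0.05 there was 1 gene, PPP1R3C, against 4.59% of all genes tested, and DESeq2 and limma on log2 FPKM also called 0 of the 32, with 3 and 0 genes at an unadjusted p under 0.05, against 4.74% and 4.88% of all genes. The log2 fold change, GIA over DMSO, ran from -0.07 for ANKRD37 to 0.72 for PPFIA4. It was positive for 26 of the 32, against 50.2% of all genes tested, with a median of 0.09 beside 0.00038 over all genes. The intervals limit the size of a difference only between these libraries, whose spread may be technical. For 27 of 32 genes the 95% interval excluded a difference of 1.5-fold in either direction, as for 83.0% of all genes. For 31 it excluded 2-fold, as for 92.9%.

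These genes had a pattern of single libraries in common. GIA library 2 had the highest FPKM of the 6 libraries for 28 of the 32 tested genes, whereas it was the highest for 29.6% of all genes tested. DMSO library 2 was the lowest for 17 of the 32, against 17.9% of all genes, and both held together for 16 of the 32, against 8.22%. FPKM in GIA library 2 was above the mean of GIA libraries 1 and 3 for 29 of 32 genes, by a median ratio of 1.20, while over all genes tested the median ratio was 1.01. DMSO library 2 lay below the mean of DMSO libraries 1 and 3 for 27 of 32, with a median ratio of 0.931, against 0.998 over all genes. GIA libraries 1 and 3 did not share this: GIA library 1 was the highest for 0 genes and the lowest for 9, and GIA library 3 was the highest for 1 gene. The genes are not independent of each other, and no test was made of these counts.

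**Figure D1:**
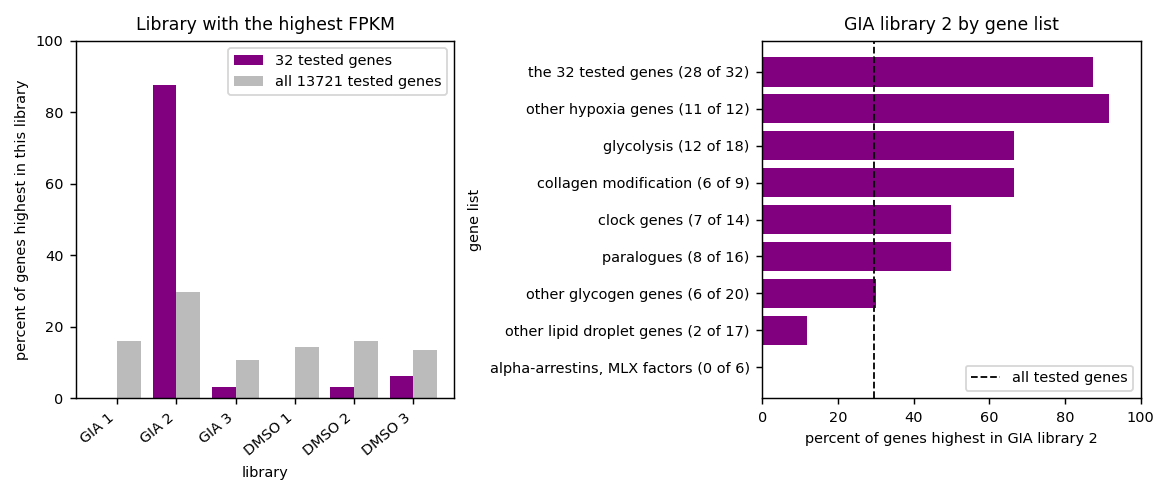
Left, percent of the 32 tested genes (purple) and of all 13721 tested genes (grey) whose FPKM was highest in each library; right, percent of each gene list that was highest in GIA library 2, with a dashed line at 29.6% for all tested genes. GIA library 2 is highest for 28 of the 32 genes and 11 of 12 other hypoxia genes, and for 6 of 20 other glycogen genes and 2 of 17 other lipid droplet genes.

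The median log2 fold change rested on that library. Without GIA library 2 it was 0.02 with 19 of 32 positive, and without GIA library 2 and DMSO library 2 it was -0.02 with 10 of 32 positive; the second of these was chosen after the values had been seen. Leaving out GIA library 1, which was often low, gave 0.14 with 29 positive. None of the 32 genes passed an adjusted p of 0.05 with any single library left out or with that pair left out.

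**Figure D2:**
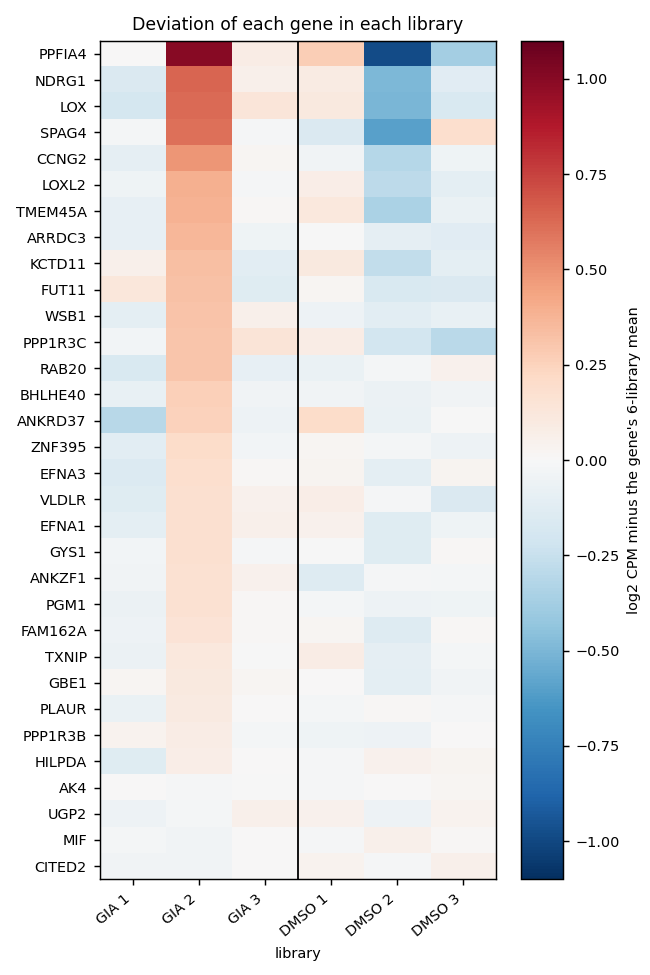
Log2 CPM (TMM-scaled counts relative to library size) of each of the 32 tested genes in each library, as the difference from that gene's mean over the 6 libraries; rows are ordered by GIA library 2 and red is above the mean. The GIA 2 column is red in nearly all rows and the DMSO 2 column is mostly blue, while AK4, MIF, UGP2 and CITED2 at the bottom are pale throughout.

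Values that moved with GIA library 2 outside these genes were the following. The 6 measured fibroblast markers summed to 175, 222 and 197 FPKM in GIA libraries 1 to 3 and 195, 178 and 187 FPKM in DMSO libraries 1 to 3. The sum was mostly LUM, and 4 of the 4 tested markers were highest in GIA library 2. The 7 measured epithelial markers summed to 462, 396 and 442 FPKM with GIA and 446, 451 and 450 FPKM with DMSO, lowest in GIA library 2. That sum was mostly KRT18 and KRT8, both lowest in GIA library 2, whereas CLDN7 was highest there, with 10.8, 14.9 and 11.1 FPKM with GIA and 11.8, 10.2 and 10.7 FPKM with DMSO. The library total did not set GIA library 2 apart, at 67835059 counts beside 67833810 in GIA library 1. The part of these values in the result was not tested, and in bulk RNA a change in the number of cells of a kind and a change in RNA per cell cannot be told apart.

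Glycogen is built from glucose 6-phosphate by PGM1, which forms glucose 1-phosphate, UGP2, which makes UDP-glucose, the synthase GYS1 and the branching enzyme GBE1. All 6 glycogen genes were expressed and 0 of 6 passed the test, with a median log2 fold change of 0.08 and 5 of 6 positive. GBE1 (chromosome 3, 81489703 to 81761645, minus strand, in GRCh38 coordinates as deposited, like those below) had 12.8, 13.7 and 12.8 FPKM in GIA libraries 1 to 3 and 12.7, 11.8 and 12.3 FPKM in DMSO libraries 1 to 3. Every GIA library lay above every DMSO library, which held for GBE1 alone among the 32 genes, against 5.63% of all genes tested; 0 of the 32 were lower in every GIA library, against 5.6% of all genes. The difference was small, with a log2 fold change of 0.10 and an SE of 0.04, 95% limits of -0.0052 and 0.20 and an adjusted p of 0.875 by edgeR.

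GYS1, the synthase form of muscle and most other tissues, had 27.0, 31.6 and 27.5 FPKM with GIA and 27.7, 25.2 and 28.0 FPKM with DMSO. PGM1 had 30.2, 35.7 and 31.9 FPKM with GIA and 31.2, 30.4 and 30.7 FPKM with DMSO. In both genes GIA library 2 was the highest of the 6, GIA library 1 lay within or just below the DMSO libraries, and the groups overlapped. UGP2 had 18.3, 18.9 and 19.7 FPKM with GIA and 19.6, 18.3 and 19.5 FPKM with DMSO, so the groups overlapped fully and no library stood apart. The log2 fold change of UGP2 was -0.02, with an SE of 0.04 and 95% limits of -0.12 and 0.08.

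PPP1R3C and PPP1R3B encode subunits that bring protein phosphatase 1 to glycogen, where it activates the synthase. PPP1R3C (chromosome 10, 91628442 to 91633071, minus strand) had 6.44, 8.22 and 7.23 FPKM with GIA and 6.97, 5.70 and 5.35 FPKM with DMSO. GIA libraries 2 and 3 lay above all DMSO libraries, and GIA library 1 lay below DMSO library 1. The log2 fold change of PPP1R3C was 0.28, with an SE of 0.12, 95% limits of 0.0052 and 0.55, an unadjusted p of 0.0466 and an adjusted p of 0.875 by edgeR. Omitting GIA library 2 gave 0.19 and omitting DMSO library 1 gave 0.40. PPP1R3B varied little, with 2.55, 2.66 and 2.44 FPKM with GIA and 2.41, 2.38 and 2.50 FPKM with DMSO. Of 25 other genes of glycogen making and breakdown in the table, 20 were tested, 11 were positive and 9 negative with a median of 0.015, and 0 passed. The most abundant of them were the phosphatase catalytic subunits PPP1CA and PPP1CB and the liver-type phosphorylase PYGL, which had 39.2, 41.0 and 39.8 FPKM with GIA and 39.0, 38.0 and 38.2 FPKM with DMSO. GIA library 2 was the highest for 6 of these 20 genes, beside 29.6% of all genes.

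Lipid droplets are coated by perilipins, and PLIN2 is the perilipin most often described as induced by hypoxia. PLIN2 (chromosome 9, 19108375 to 19149290, minus strand) had almost no counts assigned to it, with 0, 4 and 0 estimated counts with GIA and 0, 0 and 6 with DMSO. Whether reads of PLIN2 were lost in assignment was not tested. For a library with a count of 0, a limit of 12 counts was used, which is 3 fragments if a fragment is worth 4 counts. It corresponds to 0.0315 and 0.0330 FPKM in GIA libraries 1 and 3 and 0.0384 and 0.0376 FPKM in DMSO libraries 1 and 2. The limit covers counting error only and does not hold for GIA library 2 and DMSO library 3, which had counts. The paralogue PLIN3, a different gene of the droplet coat, had 62.4, 64.6 and 60.9 FPKM with GIA and 62.2, 59.8 and 62.6 FPKM with DMSO.

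HILPDA, a small inhibitor of the lipase PNPLA2, had 13.4, 15.7 and 14.8 FPKM with GIA and 14.6, 15.2 and 15.1 FPKM with DMSO. VLDLR, a receptor that takes up lipoproteins, had 1.97, 2.48 and 2.25 FPKM with GIA and 2.28, 2.15 and 1.95 FPKM with DMSO. The groups overlapped for both genes. The log2 fold changes were -0.04 (SE 0.07) for HILPDA and 0.07 (SE 0.10) for VLDLR, and they changed sign without GIA library 1 (HILPDA, 0.02) or without GIA library 2 (VLDLR, -0.0088). Of 27 other lipid droplet genes 17 were tested, 7 positive and 10 negative with a median of -0.02, and 0 passed. PNPLA2 itself had 13.7, 15.3 and 15.4 FPKM with GIA and 14.5, 15.1 and 15.6 FPKM with DMSO. GIA library 2 was the highest for 2 of these 17.

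**Figure D3:**
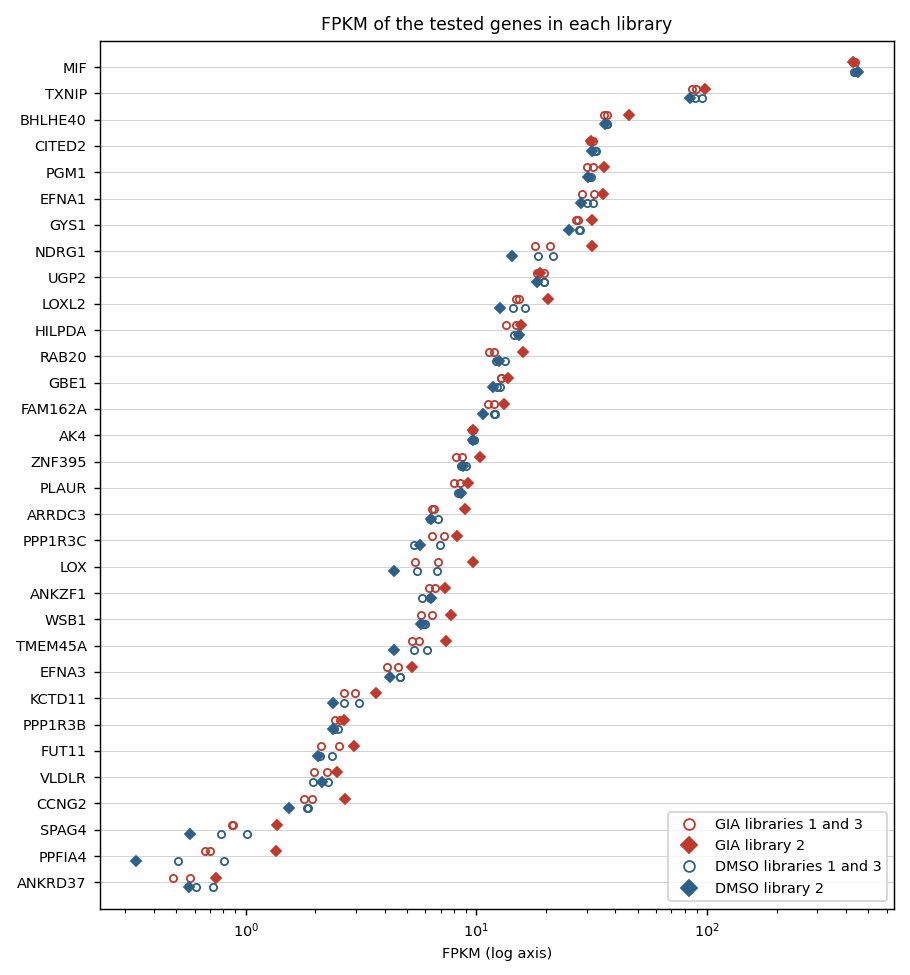
FPKM (log axis) of the 32 tested genes in each library, GIA in red above DMSO in blue within each row; filled diamonds are library 2 of each group and open circles libraries 1 and 3. The red diamond is the rightmost point in 28 of the 32 rows. The blue diamond is the leftmost in 17, among them NDRG1, LOX, TMEM45A, SPAG4 and PPFIA4. MIF lies highest, at 429 to 452 FPKM.

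Among the transcription regulators, 3 of 5 were expressed above the level needed for a test, 0 of 3 passed it, and the median log2 fold change was 0.05. BHLHE40, a repressor that also acts in the circadian clock, had 35.7, 45.7 and 36.8 FPKM with GIA and 36.9, 36.0 and 36.8 FPKM with DMSO. The 5 libraries other than GIA library 2 lay within 35.7 to 36.9 FPKM, and its log2 fold change of 0.10 (SE 0.08) became -0.01 without GIA library 2. ZNF395, a zinc finger factor, had 8.19, 10.4 and 8.69 FPKM with GIA and 9.02, 8.78 and 8.56 FPKM with DMSO, again with GIA library 2 alone above the rest. CITED2, which competes with HIF for the coactivators CBP and p300, had 31.0, 31.3 and 31.8 FPKM with GIA and 32.7, 31.6 and 33.1 FPKM with DMSO. CITED2 was one of few genes here without a high value in GIA library 2, and its log2 fold change was -0.05 (SE 0.04). BHLHE41, the paralogue of BHLHE40, had 0.0502 to 0.0968 FPKM with GIA and 0.0604 to 0.102 FPKM with DMSO, too low to be tested. The nuclear receptor RORA, also a clock regulator, had 0.0482 to 0.0781 FPKM with GIA and 0.0364 to 0.0675 FPKM with DMSO. Of 16 partner genes of the clock 14 were tested, 7 positive and 7 negative with a median of -0.0042, and 0 passed.

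The matrix enzymes LOX and LOXL2 crosslink collagen and elastin by oxidising lysines, and they varied more than most genes here. LOX (chromosome 5, 122063195 to 122078259, minus strand) had 5.42, 9.67 and 6.84 FPKM with GIA and 6.72, 4.39 and 5.54 FPKM with DMSO. LOXL2 had 14.9, 20.5 and 15.3 FPKM with GIA and 16.3, 12.6 and 14.4 FPKM with DMSO. In both genes GIA library 2 was the highest and DMSO library 2 the lowest, and GIA library 1 lay inside the range of the DMSO libraries. The log2 fold change of LOX was 0.39, with an SE of 0.20, 95% limits of -0.07 and 0.85 and an adjusted p of 0.875 by edgeR. Omitting GIA library 2 gave 0.14, omitting DMSO library 2 gave 0.25 and omitting both gave 0.0028. For LOXL2 it was 0.22 (SE 0.12), and 0.07 without GIA library 2. Of 9 other collagen-modifying genes, 6 were positive and 3 negative with a median of 0.05, 0 passed and 6 were highest in GIA library 2. PLOD1, a lysyl hydroxylase, had 48.2, 55.5 and 49.3 FPKM with GIA and 49.0, 45.0 and 47.5 FPKM with DMSO.

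The secreted cytokine MIF was the most abundant of the 37 genes and among the most even. MIF (chromosome 22, 23894383 to 23895227, plus strand) had 429, 429 and 437 FPKM with GIA and 432, 452 and 442 FPKM with DMSO, a coefficient of variation of 2.04% over the 6 libraries. DMSO library 2 was the highest and GIA library 2, by a small margin, the lowest, and the log2 fold change of -0.04 had an SE of 0.03 and 95% limits of -0.11 and 0.03. The antisense gene MIF-AS1 overlaps it at a mean of 37.6 FPKM, and whether counting used the strand is not stated in the labels. STC1, a secreted glycoprotein hormone, was too low to be tested, with 0.0789, 0.171 and 0.114 FPKM with GIA and 0.0980, 0.0309 and 0.0659 FPKM with DMSO. These are 25, 53 and 34 estimated counts with GIA and 25, 8 and 19 with DMSO, and here too GIA library 2 was the highest and DMSO library 2 the lowest.

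Ephrin-A ligands sit on the cell surface and signal to EPH receptors on neighbouring cells. EFNA1 had 28.8, 35.4 and 32.2 FPKM with GIA and 32.1, 28.3 and 30.0 FPKM with DMSO, with a log2 fold change of 0.09 (SE 0.07). EFNA3 had 4.09, 5.24 and 4.58 FPKM with GIA and 4.65, 4.22 and 4.65 FPKM with DMSO, with 0.04 (SE 0.11) and a negative value of -0.05 without GIA library 2. In both genes 1 GIA library lay above all others and GIA library 1 near the low end. Of 15 other ephrins and EPH receptors 7 were tested, 5 positive and 2 negative with a median of 0.03, and 0 passed. PLAUR, the receptor of the protease urokinase, had 8.03, 9.15 and 8.49 FPKM with GIA and 8.34, 8.54 and 8.45 FPKM with DMSO. Its groups overlapped, and the log2 fold change of 0.02 (SE 0.06) was -0.03 without GIA library 2. The membrane protein TMEM45A had 5.26, 7.40 and 5.64 FPKM with GIA and 6.10, 4.41 and 5.35 FPKM with DMSO, and -0.07 without both libraries numbered 2 in place of 0.20 (SE 0.14) with all. TMEM45B, its paralogue, had 0.216, 0.200 and 0.178 FPKM with GIA and 0.138, 0.123 and 0.152 FPKM with DMSO. These rest on 39 to 49 estimated counts with GIA and 24 to 32 with DMSO, below the level at which genes were tested.

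Genes that restrain growth and glucose uptake included some of the largest values in GIA library 2. NDRG1, a widely used marker of hypoxia that is linked to differentiation, had 17.9, 31.6 and 20.9 FPKM with GIA and 21.4, 14.2 and 18.5 FPKM with DMSO. The highest library had 2.22 times the FPKM of the lowest, while GIA libraries 1 and 3 lay within the range of the DMSO libraries. The log2 fold change of NDRG1 was 0.38, with an SE of 0.20, 95% limits of -0.07 and 0.83 and an adjusted p of 0.875 by edgeR. It was 0.11 when GIA library 2 was left out, 0.23 when DMSO library 2 was, and -0.03 when both were. The paralogue NDRG3, by comparison, had 17.1, 17.9 and 17.6 FPKM with GIA and 17.4, 17.7 and 17.0 FPKM with DMSO.

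TXNIP, an alpha-arrestin that binds thioredoxin and lowers glucose uptake, had 85.8, 98.0 and 89.3 FPKM with GIA and 95.1, 83.9 and 88.6 FPKM with DMSO. ARRDC3, a related alpha-arrestin that directs membrane proteins to degradation, had 6.40, 8.88 and 6.58 FPKM with GIA and 6.81, 6.34 and 6.28 FPKM with DMSO. The groups overlapped for both, and GIA library 2 was the highest. TXNIP had a log2 fold change of 0.03 (SE 0.06) and ARRDC3 of 0.17 (SE 0.11), which were -0.02 and 0.0048 without GIA library 2. Of 6 other alpha-arrestins and MLX-family glucose sensors, all tested, 4 positive and 2 negative, 0 passed and 0 were highest in GIA library 2.

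CCNG2, an unusual cyclin that accompanies cell cycle arrest, had 1.79, 2.70 and 1.94 FPKM with GIA and 1.86, 1.53 and 1.85 FPKM with DMSO, a log2 fold change of 0.29 (SE 0.15). KCTD11, a ubiquitin ligase adaptor that restrains Hedgehog signalling, had 2.98, 3.66 and 2.65 FPKM with GIA and 3.10, 2.38 and 2.67 FPKM with DMSO. WSB1, also a ubiquitin ligase adaptor, had 5.76, 7.78 and 6.44 FPKM with GIA and 5.97, 5.73 and 5.87 FPKM with DMSO. In CCNG2 and WSB1, GIA libraries 2 and 3 lay above all DMSO libraries and GIA library 1 among them, and in KCTD11 GIA library 2 alone lay above them. WSB1 had a log2 fold change of 0.18 (SE 0.09), which was 0.06 without GIA library 2. ANKRD37, an ankyrin repeat protein, had the lowest mean level of the tested genes, 0.617 FPKM over 6 libraries. It had 0.485, 0.743 and 0.575 FPKM with GIA and 0.720, 0.568 and 0.610 FPKM with DMSO, and its log2 fold change of -0.07 (SE 0.23) had 95% limits of -0.58 and 0.45.

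The remaining 7 genes include some that act in mitochondria, vesicles, the nuclear envelope and synapses. AK4, an adenylate kinase of the mitochondrial matrix, was the steadiest of the tested genes, with 9.63, 9.64 and 9.58 FPKM with GIA and 9.57, 9.66 and 9.78 FPKM with DMSO. Its coefficient of variation over the 6 libraries was 0.775%, and a log2 fold change of -0.0093 had an SE of 0.03 and 95% limits of -0.09 and 0.07. FAM162A, a mitochondrial protein linked to cell death in hypoxia, had 11.3, 13.1 and 11.9 FPKM with GIA and 12.0, 10.7 and 11.9 FPKM with DMSO. ANKZF1, which acts in ribosome quality control, had 6.23, 7.28 and 6.60 FPKM with GIA and 5.79, 6.34 and 6.32 FPKM with DMSO. Both of the last genes overlapped between groups, with log2 fold changes of 0.07 (SE 0.07) and 0.12 (SE 0.07).

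PPFIA4, which encodes liprin-alpha-4, a scaffold protein, had the largest fold change of the 32 and also one of the lowest levels. PPFIA4 (chromosome 1, 203026498 to 203078740, plus strand) had 0.666, 1.35 and 0.701 FPKM with GIA and 0.803, 0.334 and 0.511 FPKM with DMSO. GIA libraries 1 and 3 lay below DMSO library 1, so the groups overlapped. The log2 fold change of PPFIA4 was 0.72, with an SE of 0.34, 95% limits of -0.06 and 1.49 and an adjusted p of 0.875 by edgeR. It was 0.32 when GIA library 2 was left out, 0.46 when DMSO library 2 was and 1.09 when DMSO library 1 was. SPAG4, a protein of the nuclear envelope, had 0.873, 1.37 and 0.880 FPKM with GIA and 0.785, 0.573 and 1.02 FPKM with DMSO. RAB20, a small GTPase of endosomes, had 11.4, 16.0 and 12.0 FPKM with GIA and 12.2, 12.5 and 13.3 FPKM with DMSO, and its log2 fold change of 0.04 (SE 0.12) was -0.12 without GIA library 2. FUT11, a fucosyltransferase, had 2.53, 2.93 and 2.12 FPKM with GIA and 2.36, 2.06 and 2.09 FPKM with DMSO. In each of these 4 genes GIA library 2 was the highest library.

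**Figure D4:**
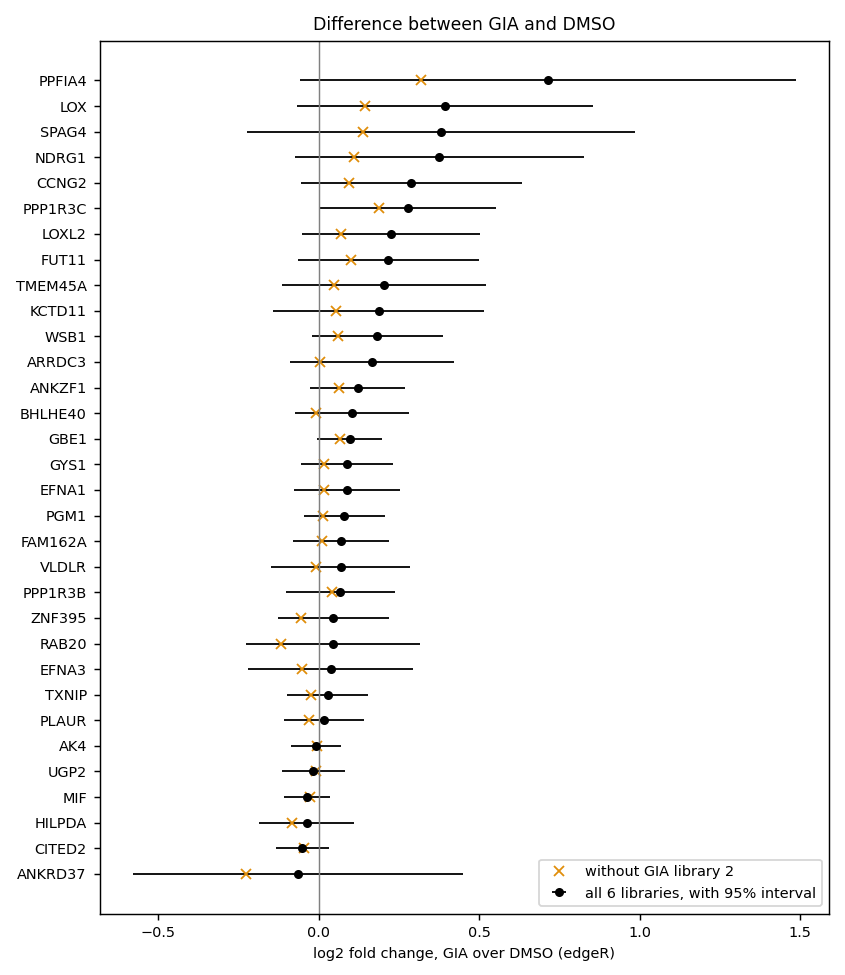
Log2 fold change, GIA over DMSO, of the 32 tested genes by edgeR with 95% intervals (black), and the same without GIA library 2 (orange crosses). The interval of PPP1R3C alone excludes 0 before adjustment, and the crosses lie nearer to 0 than the points for most genes with positive values, with PPFIA4 at 0.32 in place of 0.72.

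Many other hypoxia-induced genes were also highest in GIA library 2. Among 12 other hypoxia-induced genes, 11 were highest in GIA library 2 and 9 lowest in DMSO library 2, and 0 of 12 passed the test. CA9, the hypoxia-induced carbonic anhydrase, had 9.50, 32.8 and 15.3 FPKM with GIA and 18.1, 4.17 and 9.23 FPKM with DMSO, so that its extreme libraries were those of NDRG1 and LOX. Of 18 glycolysis genes, 12 were highest in GIA library 2, and 0 passed. HIF1A, an oxygen-regulated HIF subunit, had 58.3, 66.5 and 59.4 FPKM with GIA and 60.4, 59.6 and 59.7 FPKM with DMSO, also with GIA library 2 the highest. EPAS1, another HIF alpha subunit, was instead highest in DMSO library 2, with 40.81 FPKM there and 39.96 FPKM in GIA library 2. Its log2 fold change was -0.0033 (SE 0.04). Of 4 tested HIF subunit genes, 3 were highest in GIA library 2. The 15 tested genes with ACGTG in the promoter window had a median ratio of GIA library 2 to GIA libraries 1 and 3 of 1.20 (range 0.990 to 1.98), and the 8 without had 1.17 (range 1.12 to 1.37). Of 18 paralogues of the genes, 16 were tested, 8 were highest in GIA library 2, 14 were positive with a median of 0.03, and 0 passed. Spread over libraries was wider for the genes described here than for others, with a median coefficient of variation of 7.71% among those with a mean of at least 5 FPKM, against 4.42% for all genes above that level.

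The 37 genes fell on both sides of the level needed for a test. The highest mean among the 5 untested genes was 0.168 FPKM (TMEM45B) and the lowest among the 32 tested was 0.617 FPKM (ANKRD37), on either side of the limit of 0.5 FPKM. Gene models overlap for some: UFSP2, on the other strand of ANKRD37, had a mean of 3.23 FPKM, SRFBP1 on the other strand of LOX 4.91 FPKM and ENTPD4 on the strand of LOXL2 5.45 FPKM. The share of reads given to each of such overlapping models is an estimate.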

How the data were processed

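TRIzol was used for RNA and the libraries, made with the SMARTER mRNA-Seq kit, keep the strand, per the labels' protocols. Tools named in the submitters' processing notes are HISAT2 2.2.1, StringTie 2.1.6, cutadapt, FastQC 0.10.1 and DESeq2 1.22.2, with GRCh38 and hg38 as builds; their roles and the annotation release are not stated there. Per the file headers, the authors deposited an FPKM and a count per library for 30676 genes, in columns named Ctrl or G with a number, which were matched to the library names in the labels. The deposited counts are whole numbers but were treated as estimated counts, for the following reasons. Apart from a scale factor for each library, count and FPKM kept a constant ratio within a gene (to 0.194% at the 99th percentile). Low values piled up at 4 (6798, against 4183 at 3 and 2499 at 5).

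From these, edgeR 4.0.16 (quasi-likelihood, two-sided, TMM scaling, no covariate, R 4.3.3) was fitted to the 13721 genes with a mean of at least 0.5 FPKM, with Benjamini-Hochberg adjustment over all of them. Each SE is derived from a gene's log2 fold change and F value. Alternatives were DESeq2 1.42.0, limma 3.58.1 on log2 (FPKM + 0.5, 0.1 or 1), other filters and scalings, counts divided by 4, the library number as a block and each library left out. The edgeR fit was tested on simulated counts. The naming rule took all 37 genes, the 3 tested genes of highest mean FPKM in each comparison list and cell type markers. It also took CA9, VEGFA, HIF1A and paralogues where a result turns on them. PNPLA2 and ADM fall outside the rule and were picked with their values known. Genes, lists and rules were all chosen with earlier results of these data known. Promoter windows are from RefSeq (GRCh38.p14), using the first window listed for each gene; the 5 genes on chromosome 8 and all other windows there were left out of the motif counts.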

Additional observations from a re-analysis of the deposited data

How the results depend on the processing

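None of the 32 hypoxia genes passed an adjusted p of 0.05 under any alternative that was run (edgeR with other filters, scalings and libraries, DESeq2 and limma). Over all genes, 0 calls became 3 with a replicate block and 4 without both libraries numbered 2, and 0 to 5 with each library left out in turn. The block is not part of the design: deviations of same-numbered libraries correlated at 0.05, 0.03 and 0.10, each under 0.1 before rounding, and although each GIA library correlated best with the DMSO library of its own number, DMSO library 2 correlated slightly better with GIA library 1. With the block 0 of the 32 genes passed, and the median was 0.09. The median log2 fold change of the tested genes was 0.09 to 0.10 under other tests, filters, scalings and the count scale, and -0.019 to 0.14 with libraries left out, -0.019 being the value without GIA library 2 and DMSO library 2 (chosen after seeing the data). With 1 library or that pair left out, the log2 fold change crossed 0 for 19 of the 32 genes. Its range was -0.027 to 0.13 for GYS1, -0.049 to 0.0046 for UGP2, -0.085 to 0.019 for HILPDA, -0.0088 to 0.15 for VLDLR, -0.019 to 0.17 for BHLHE40, -0.055 to 0.11 for ZNF395, -0.017 to 0.32 for LOXL2, -0.025 to 0.16 for EFNA1 and -0.10 to 0.12 for EFNA3. It was -0.030 to 0.058 for PLAUR, -0.066 to 0.32 for TMEM45A, -0.035 to 0.53 for NDRG1, -0.065 to 0.076 for TXNIP, -0.0089 to 0.25 for ARRDC3, -0.031 to 0.29 for KCTD11, -0.29 to 0.062 for ANKRD37, -0.041 to 0.12 for FAM162A, -0.12 to 0.13 for RAB20 and -0.042 to 0.60 for SPAG4. Without the pair alone, the sign differed from that with all libraries for 16 genes, and no sign differed when GIA library 3 or DMSO library 3 was left out. The cause was not tested beyond the libraries left out. Without GIA library 1, 10 of the 32 genes were at an unadjusted p under 0.05, against 10.3% of all genes tested there, and without DMSO library 1 there were 6, against 3.49%. The 95% interval reached beyond 1.5-fold for 5 of the 32 genes, so a difference of that size was not excluded for them.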
